A study of Mus musculus with 4 samples.

Results

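The cells described here were picked by a rule meant for type 2 conventional dendritic cells, the dendritic cells of mouse liver that carry Cd209a. A cell entered with at least 1 UMI (unique molecular identifier, a count of 1 captured RNA molecule) of Cd209a, at least 1 of Flt3, Clec10a and Mgl2 together and at least 3 of H2-Ab1. It was left out with any UMI of Xcr1, Clec9a, Cd3e or Cd79a, or with more than 1 of Clec4f. The rule found 206 of 32150 kept cells, with 39 in the HFD_EXE library, 138 in HFD_sed and 29 in S. The libraries hold non-parenchymal cells, the liver cells other than hepatocytes, from C57BL/6J mice aged 30 weeks, measured by droplet single-cell RNA-seq with 10x Genomics 3′ chemistry. The study set mice with or without a high fat diet (HFD) and physical exercise side by side. Group HFD_EXE and group HFD_sed carry HFD in their names, group S does not, and the labels do not spell out EXE, sed or S. A further group named E was not analysed here. Each group is 1 library, and the labels do not say how many mice went into it. Between libraries there is therefore no replicate and no test, and every interval below is an exact 95% interval that covers counting error only.

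Conventional dendritic cells take up antigen, carry it to lymph nodes and show it to T cells on MHC molecules. The type 1 lineage, marked by Xcr1 and Clec9a and built by Irf8 and Batf3, is known for showing antigen on MHC class I. The type 2 lineage, marked by Sirpa, Itgam (CD11b) and, in many tissues, the lectins Clec10a and Mgl2, depends on Irf4 among others and is known for priming helper T cells through MHC class II. Plasmacytoid dendritic cells, marked by Siglech and Ccr9, are a separate lineage that makes interferon, and monocytes can take on many of the same genes in an inflamed liver.

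The deposited matrices hold 60901242 UMIs in 11280 barcodes for HFD_EXE, 63456399 in 11752 for HFD_sed and 84666844 in 11660 for S, while the labels speak of 5000 to 6000 cells caught per sample. Between 29 and 46 barcodes were shared by any 2 libraries, group E included. No barcode was that of a cell found by the rule in more than 1 of the analysed libraries. The median cell found by the rule held 9802 UMIs in HFD_EXE, 9095 in HFD_sed and 9726 in S, with extremes of 1585 and 28194. Summed over these cells the libraries held 446870, 1328625 and 307412 UMIs in HFD_EXE, HFD_sed and S, so levels are most precise in HFD_sed. Levels below are given as CPM, the UMIs of a gene scaled to the same sum in every library.

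The genes that chose the cells are given as a description only. Cd209a, a C-type lectin related to human DC-SIGN, had a median of 5 UMIs per cell in HFD_EXE, 3.5 in HFD_sed and 4 in S, and at most 22, 32 and 28. H2-Ab1, the beta chain of the MHC class II molecule I-A, had medians of 81, 67 and 84 UMIs in HFD_EXE, HFD_sed and S. Flt3, the receptor for the dendritic cell growth factor Flt3 ligand, was seen in 29 of 39, 100 of 138 and 27 of 29 cells of HFD_EXE, HFD_sed and S. Clec10a, a lectin for galactose-type sugars, was seen in 30, 89 and 21 cells, and its near copy Mgl2 in 12, 34 and 6. Reads shared by Clec10a and Mgl2, or by Cd209a and its neighbours in the same gene family, may have been split between them by the counting. In sinusoidal endothelial cells, which should lack it, Cd209a was seen in 0.313%, 0.772% and 0.125% of cells of HFD_EXE, HFD_sed and S.

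Cells near the limits of the rule were few for some genes and many for others. With 3 to 5 H2-Ab1 UMIs 8 cells lay just inside, and with 0 to 2 UMIs 17 cells lay just outside. One Clec4f UMI, a Kupffer cell lectin, was carried by 48 cells inside, and 2 by 10 cells outside. A single UMI of Flt3, Clec10a and Mgl2 together admitted 32 cells, 29 of them in HFD_sed, and none kept out 23, of which 20 were in HFD_sed. A single Cd209a UMI admitted 44 cells, while an Xcr1 or Clec9a UMI kept out 98.

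The label fails for a distinct minority of these cells, and the others varied in monocyte-type genes, as given below. Siglech, a lectin of plasmacytoid cells, was at 0 in 163 of the 206 cells, at 1 or 2 UMIs in 3 and at 12 or more in 37. At least 3 UMIs were carried by 15 of 39 cells in HFD_EXE (38.5%, interval 23.4 to 55.4%), 18 of 138 in HFD_sed (13.04%, 7.92 to 19.8%) and 7 of 29 in S (24.1%, 10.3 to 43.5%). Together these are 40 cells, or 19.4%, called Siglech cells from here on. The limit of 3 was set after the values were seen, so what follows about them is a description.

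Siglech cells carried the other plasmacytoid markers too. The chemokine receptor Ccr9 stood at 1344, 1720 and 1794 CPM in Siglech cells of HFD_EXE, HFD_sed and S, and Ly6d, a surface protein of lymphoid and plasmacytoid precursors, at 1556, 1860 and 1889 CPM. Tcf4, the transcription factor that builds the plasmacytoid lineage, stood at 2259, 2278 and 2965 CPM. In the cells that remain after setting aside Siglech and other marked cells, Ccr9 was at 4.31, 2.76 and 0 CPM and Tcf4 at 138, 220 and 166 CPM. Among genes of conventional dendritic cells, H2-Ab1 and Itgam were lower in the Siglech cells. H2-Ab1 stood at 2323, 2034 and 1983 CPM in Siglech cells of HFD_EXE, HFD_sed and S, against 9654, 8363 and 9220.05 CPM in the remaining cells. In HFD_EXE 1 cell with 4 Siglech UMIs and only 523 CPM of plasmacytoid markers held 159 of the 330 H2-Ab1 UMIs, and without it the level was 1370 CPM. Itgam was at 35.2, 0 and 0 CPM in Siglech cells, all of it in 1 cell, against 202, 167 and 216 CPM in the remaining cells. Sirpa was at 246, 272 and 170 CPM in Siglech cells against 202, 287 and 103 CPM in the remaining cells, with Poisson intervals that overlap in each library. The 17 measured identity genes of conventional dendritic cells, which include Irf8 and Tcf4, summed to 0.681%, 0.847% and 1.01% of UMIs in Siglech cells against 0.303%, 0.382% and 0.337% in the remaining cells. Irf8 was at 3280, 4221 and 5383 CPM in Siglech cells against 194, 225 and 53.9 CPM in the remaining cells. Irf8 and Tcf4 gave most of the sum in Siglech cells, so it does not show that the other listed genes were higher. Cd209a itself was at 408, 383 and 604 CPM in Siglech cells against 663, 691 and 602 CPM in the remaining cells, so it was lower in HFD_EXE and HFD_sed, where the Poisson intervals do not overlap, and close in S.

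Other marked cells were rarer. At least 30 UMIs of 10 sinusoidal endothelial markers were carried by 6, 3 and 2 cells of HFD_EXE, HFD_sed and S, and at least 30 of Kupffer cell markers other than Clec4f by 1, 4 and 0. Setting aside these and the Siglech cells left 153 cells (74.3%), called the remaining cells: 20 in HFD_EXE, 113 in HFD_sed and 20 in S. In them the 10 plasmacytoid markers summed to 0.0121%, 0.0147% and 0.0260% of UMIs. The 12 monocyte markers summed to 0.248%, 0.319% and 0.248%, spread over a median of 21, 25 and 17.5 UMIs per cell, and to 0.512%, 0.609% and 0.627% in the Siglech cells of HFD_EXE, HFD_sed and S. Ccr2 and Lyz2 went against that order. Ccr2 was at 176, 439 and 340 CPM in Siglech cells against 465, 927 and 763 CPM in the remaining cells. Lyz2 was at 98.5, 76.6 and 0 CPM against 1718, 3173 and 1819 CPM. Single cells stood apart as well. In HFD_EXE 1 remaining cell held 4839 of the 4873 haemoglobin and other erythroid UMIs, and in S 1 remaining cell held 35 of the 47 natural killer cell UMIs. Each result below is given for all 206 cells and, where it moves, for the remaining cells.

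**Figure D1:**
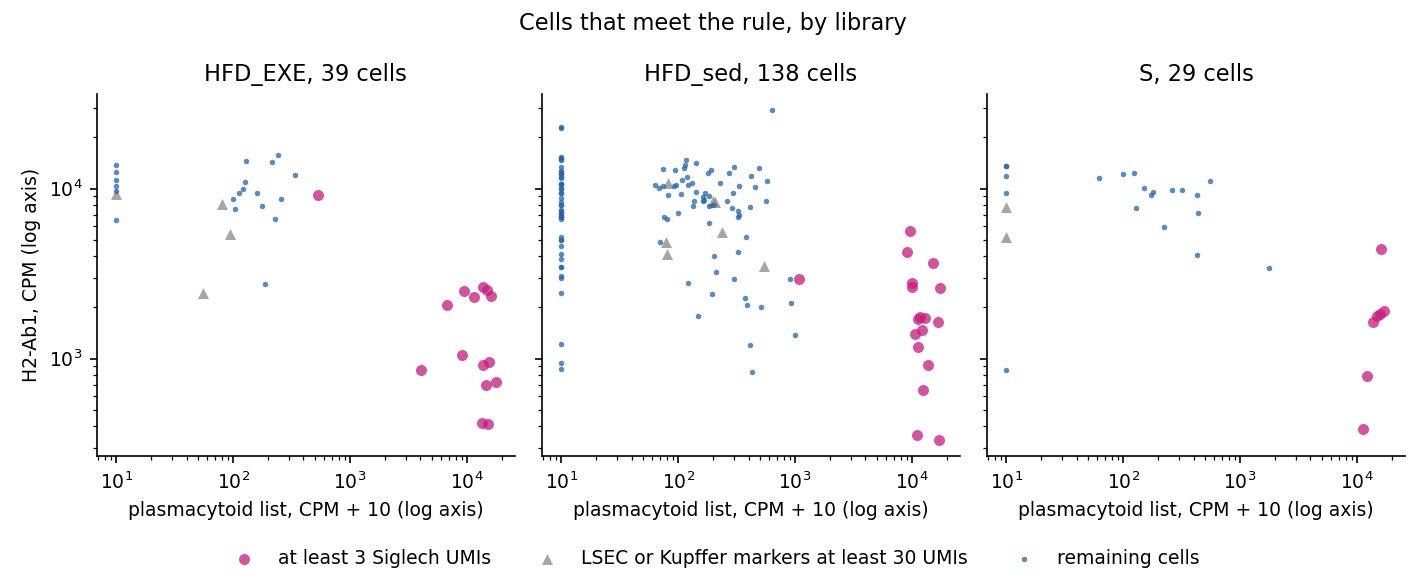
Each point is a cell found by the rule, in HFD_EXE, HFD_sed and S from left to right, placed by its summed level of 10 plasmacytoid markers (CPM plus 10, log axis) and its level of H2-Ab1 (CPM, log axis). Of the 40 cells with at least 3 Siglech UMIs all but 2 lie to the right, at 4026 CPM of these markers or more, while the remaining cells reach at most 326 CPM in HFD_EXE, 987 CPM in HFD_sed and 1748 CPM in S.

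Cells found by the rule made up 0.373% of kept cells in HFD_EXE (39 of 10467, Clopper-Pearson interval 0.265 to 0.509%), 1.25% in HFD_sed (138 of 11068, 1.05 to 1.47%) and 0.273% in S (29 of 10615, 0.183 to 0.392%). The share in HFD_sed was 4.56 times that in S (interval 3.04 to 7.07), and the share in HFD_EXE was 0.299 times that in HFD_sed (0.204 to 0.429). Between HFD_EXE and S the ratio was 1.36 (0.822 to 2.29), an interval that spans no difference. A droplet library catches cell types in unequal shares, so the share was also taken among cells with a UMI of Ptprc, the leukocyte marker CD45. There it was 0.964% in HFD_EXE, 1.68% in HFD_sed and 0.483% in S, and the ratios were 3.47 for HFD_sed over S, 0.575 for HFD_EXE over HFD_sed (0.392 to 0.826) and 1.997 for HFD_EXE over S (1.20 to 3.35). The gap between HFD_EXE and HFD_sed is thus smaller among leukocytes than among all cells.

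Depth and the marked cells moved these shares further. When every cell was thinned to 2000 UMIs, which left out 1601, 1568 and 1047 shallower cells of HFD_EXE, HFD_sed and S, the shares were 0.259%, 0.600% and 0.199%, with ratios of 3.02 for HFD_sed over S (1.77 to 5.38) and 0.432 for HFD_EXE over HFD_sed (0.254 to 0.713). The remaining cells alone made up 0.191%, 1.02% and 0.188% of kept cells of HFD_EXE, HFD_sed and S. Their ratio was 5.42 for HFD_sed over S (3.35 to 9.21), 0.187 for HFD_EXE over HFD_sed (0.110 to 0.303) and 1.01 for HFD_EXE over S (0.518 to 1.99). In each of these views HFD_sed had the highest share. With 1 library a group, the diet, the mouse and the preparation cannot be told apart.

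**Figure D2:**
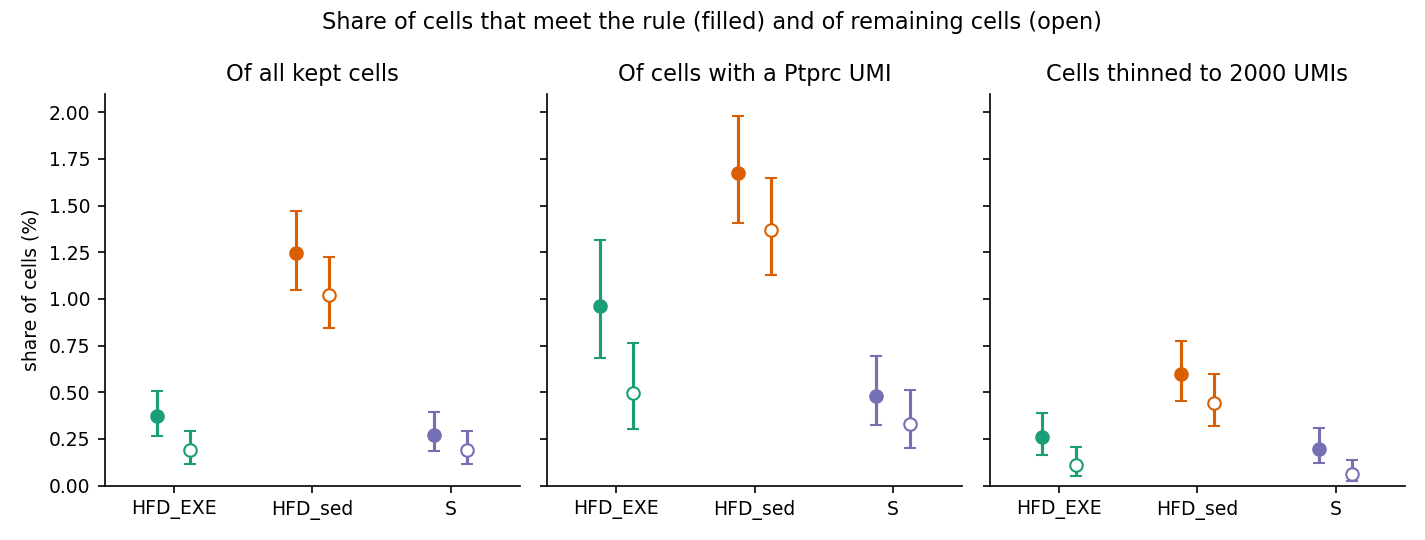
Share of cells found by the rule (filled) and of remaining cells (open) in HFD_EXE, HFD_sed and S, in percent of all kept cells, of cells with a Ptprc UMI, and of cells thinned to 2000 UMIs, with exact 95% intervals. HFD_sed stands highest in every panel, at 1.25% against 0.373% in HFD_EXE and 0.273% in S among all kept cells.

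Identity genes that the rule did not use were present at modest levels. Itgam stood at 134, 148 and 166 CPM in HFD_EXE, HFD_sed and S, and Itgax, the integrin CD11c, at 148, 200 and 247 CPM. Irf4, a transcription factor of the type 2 lineage, stood at 33.6, 53.4 and 71.6 CPM, and Zbtb46, a factor of conventional dendritic cells, at 31.3, 39.1 and 58.6 CPM. For Itgam and Zbtb46 the interval of the ratio spans no difference for every pair of libraries, while Irf4 and Itgax were lower in HFD_EXE than in S, with log2 ratios of -1.09 (-2.14 to -0.08) and -0.74 (-1.24 to -0.25). For Irf4 the interval in the remaining cells, -0.92 (-2.13 to 0.21), spans no difference. Sirpa, the inhibitory receptor that marks the type 2 lineage, was at 233, 302 and 120 CPM in HFD_EXE, HFD_sed and S, which is lowest in S. Clec4a4, the antigen 33D1 of splenic type 2 cells, was near 0, with 7 UMIs in all 206 cells. Cd7, a surface protein that some dendritic cells share with T cells, stood at 101, 157 and 137 CPM, but at 43.1, 145 and 49.4 CPM in the remaining cells.

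The cells differed among themselves in monocyte-type, maturation and cycling genes. Each cell was thinned to 3000 UMIs for these counts, which kept all but 4 cells of HFD_sed. Lyz2, the lysozyme of monocytes and macrophages, reached 5 UMIs in 5 of 39 cells of HFD_EXE (12.8%), 45 of 134 of HFD_sed (33.6%, interval 25.7 to 42.2%) and 4 of 29 of S (13.8%). Among the remaining cells the numbers were 3 of 20, 36 of 109 and 3 of 20. Lyz2 varied without a gap, and 5, 20 and 3 cells lay near that limit. The genes of mature migratory dendritic cells (Ccr7, Fscn1, Cacnb3, Ccl22 and Il4i1) reached 3 UMIs together in 2 of 39, 10 of 134 and 0 of 29 cells of HFD_EXE, HFD_sed and S. The 0 of 29 in S allows a share of up to 11.9%. Among the remaining cells, thinned separately, 0 of 20, 6 of 109 and 0 of 20 cells reached 3 UMIs of these genes. Cell cycle genes reached 10 UMIs in 1, 6 and 0 cells, so cycling cells were few everywhere.

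Between HFD_sed and S, 6265 genes had at least 30 UMIs in both libraries together and count as measured here. Of these 496 (7.92%) were at least 2-fold higher and 227 (3.62%) at least 2-fold lower in HFD_sed, and the median log2 ratio over measured genes was 0.07. Scaling by median-ratio size factors in place of summed UMIs moved that median to 0.18. Chemokine, maturation, NF-kB, interferon and sterol genes lay above this background, and a short set that includes Ccnd2 and Ier3 lay below it. In the remaining cells 569 of 5371 genes (10.6%) were higher and 128 (2.38%) lower. The lists below were drawn up for this tissue with earlier results of the same libraries known, so their counts describe these libraries and test nothing.

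Chemokines that draw T cells stood higher in HFD_sed. Of 11 measured chemokine genes 6 were at least 2-fold higher and none lower, with a median log2 ratio of 1.19. Cxcl10, which draws T cells through Cxcr3, was at 253 CPM in HFD_EXE, 233 CPM in HFD_sed and 0 CPM in S. Its level in HFD_sed was at least 23.9-fold higher than in S, against a floor of 3 UMIs over the library, or 19.3-fold at the lower end of the exact interval of the ratio. The gene was uneven over cells, with 24 of 138 cells of HFD_sed holding any UMI and 1 cell holding 36% of them. Cxcl9, the other interferon-induced ligand of Cxcr3, was at 304, 228 and 52.0 CPM in HFD_EXE, HFD_sed and S, a log2 ratio of 2.13 (interval 1.41 to 2.96) for HFD_sed over S. Over the whole library Cxcl10 was at 226 CPM in HFD_sed and 83.6 CPM in S, and sinusoidal endothelial cells held it in 37.7% and 23.8% of cells, while the part of free RNA in these values was not tested. Cxcl16, a membrane-bound ligand of Cxcr6, was at 125, 208 and 71.6 CPM, a log2 ratio of 1.54 (0.92 to 2.24).

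Genes of dendritic cell maturation were also higher in HFD_sed, with 5 of 13 measured at least 2-fold higher and 1 lower (median log2 ratio 0.80), and with 7 of 11 higher and none lower in the remaining cells (1.52). Cd83, a surface marker of activated dendritic cells, was at 179, 265 and 39.0 CPM in HFD_EXE, HFD_sed and S, a log2 ratio of 2.76 (1.94 to 3.73) for HFD_sed over S. It was seen in 18 of 39, 74 of 138 and 6 of 29 cells, against 4.07%, 7.64% and 6.21% of sinusoidal endothelial cells. Cd40, which receives help from T cells, was at 29.1, 69.2 and 6.51 CPM, a log2 ratio of 3.41 (1.52 to 6.48). Il4i1, a secreted enzyme that breaks down aromatic amino acids, was at 24.6, 78.3 and 6.51 CPM, a log2 ratio of 3.59 (1.70 to 6.65). Both Cd40 and Il4i1 rest on 2 UMIs in S. Ccl22, a chemokine for regulatory T cells made by mature dendritic cells, was at 161, 64.7 and 0 CPM and so at least 6.63-fold higher in HFD_sed than in S against the floor, or 5.28-fold at the lower end of the interval. Ccr7, the receptor that leads mature dendritic cells to lymph nodes, was at 2.24, 52.7 and 0 CPM, and 56% of its UMIs in HFD_sed came from 1 cell.

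The interferon list gave 9 of 19 measured genes at least 2-fold higher and none lower, with a median log2 ratio of 0.81. Isg15, a ubiquitin-like interferon-induced protein, was at 60.4, 114 and 35.8 CPM in HFD_EXE, HFD_sed and S, a log2 ratio of 1.68 (0.80 to 2.71) for HFD_sed over S that was 0.84 (-0.06 to 1.89) in the remaining cells. Gbp2, a guanylate-binding protein induced by interferon gamma, was at 64.9, 64.0 and 6.51 CPM, a log2 ratio of 3.30 (1.40 to 6.37). Rtp4, another interferon-induced gene, ran the other way at 62.7, 45.2 and 78.1 CPM, a log2 ratio of -0.79 (-1.49 to -0.04). The list thus leans to HFD_sed without moving as a block. Of 12 measured NF-kB genes 3 were at least 2-fold higher and none lower (median log2 ratio 0.78). Nfkbiz, an inducible modulator of NF-kB targets, was at 152, 301 and 124 CPM, a log2 ratio of 1.28 (0.80 to 1.80).

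Sterol genes formed a smaller group. Of 12 measured genes of cholesterol efflux and synthesis 4 were at least 2-fold higher and none lower in HFD_sed (median log2 ratio 0.76), and 6 of 11 in the remaining cells (1.02). Hmgcs1, an early enzyme of the mevalonate pathway, was at 80.6, 95.6 and 26.0 CPM in HFD_EXE, HFD_sed and S, a log2 ratio of 1.88 (0.85 to 3.12) for HFD_sed over S. Fabp5, a carrier of fatty acids in myeloid cells, was at 78.3, 125 and 13.01 CPM, a log2 ratio of 3.26 (1.88 to 5.16). For Hmgcs1 and Fabp5 HFD_EXE lay between the other libraries. Fabp5 belongs to the list of lipid-associated macrophage genes, of which 3 of 11 measured were at least 2-fold higher and none lower.

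Of 13 measured type 2 lineage genes 3 were at least 2-fold higher and none lower in HFD_sed than in S, and the list as a whole stayed near even (median log2 ratio 0.24). Sirpa, one of the 3, had a log2 ratio of 1.33 (0.84 to 1.85), while Itgam and Irf4 stood slightly lower in HFD_sed, with intervals that span no difference. S100a4, a calcium-binding protein of motile myeloid cells, was at 944, 1444 and 647 CPM in HFD_EXE, HFD_sed and S, a log2 ratio of 1.16 (0.95 to 1.38). Of 9 measured cell cycle genes 4 were at least 2-fold higher and none lower (0.74), and likewise in the remaining cells (0.93). Some genes outside these lists had ratios of similar size. Cxcr4, the receptor for the bone marrow chemokine Cxcl12, was at 217, 297 and 94.3 CPM, a log2 ratio of 1.65 (1.11 to 2.25). Emilin2, an extracellular matrix glycoprotein, was at 55.9, 131 and 26.0 CPM, a log2 ratio of 2.33 (1.32 to 3.57). Tppp3, a tubulin-binding protein, had 113 UMIs in HFD_sed and none in S, which makes it at least 8.72-fold higher in HFD_sed against the floor, or 6.97-fold at the lower end of the interval. Lyz2 was at 1018, 2880 and 1327 CPM, a log2 ratio of 1.12 (0.97 to 1.27) that was 0.80 (0.65 to 0.95) in the remaining cells. Its level leans on single cells in the smaller libraries, since 1 cell held 45% of the Lyz2 UMIs in HFD_EXE and 42% in S, against 6% in HFD_sed. Without the highest cell of each library the log2 ratio of Lyz2 for HFD_sed over S was 1.65.

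With at least 30 UMIs asked of both libraries together, fewer genes were lower than higher in HFD_sed against S. That order depends on the minimum count. With only 1 UMI asked of each library, 974 genes were higher and 2010 lower. Ccnd2, a cyclin that drives entry into the cell cycle, was at 309, 145 and 384 CPM in HFD_EXE, HFD_sed and S, a log2 ratio of -1.40 (-1.74 to -1.06) for HFD_sed over S. Ier3, an early stress-response gene, was at 40.3, 70.0 and 195 CPM, a log2 ratio of -1.48 (-1.96 to -0.99). Btla, an inhibitory receptor of lymphocytes and dendritic cells, was at 62.7, 39.1 and 94.3 CPM, a log2 ratio of -1.27 (-1.95 to -0.56). Cd34, a sialomucin of precursor and endothelial cells, was at 51.5, 28.6 and 87.8 CPM, a log2 ratio of -1.62 (-2.37 to -0.85). These 4 stayed lower in the remaining cells, with log2 ratios of -1.68, -1.72, -1.50 and -1.90 for Ccnd2, Ier3, Btla and Cd34. Other genes at the head of the lower side, such as Fcrla and Klk1, were genes of the Siglech cells, whose share was 13.04% in HFD_sed and 24.1% in S. Fcrla, for example, was at 60.4, 16.6 and 87.8 CPM over all cells of HFD_EXE, HFD_sed and S and at 4.31, 1.84 and 0 CPM in the remaining cells. Markers of other cells moved with the lower side too. Of 10 endothelial markers 9 were at least 2-fold lower (median -1.70), and they summed to 0.294%, 0.0428% and 0.138% of UMIs in HFD_EXE, HFD_sed and S. Of 8 measured hepatocyte markers 5 were at least 2-fold lower (-1.98), and 3 of 6 in the remaining cells (-1.27), with sums over all cells of 0.0734%, 0.0473% and 0.135%. The part of these cells' RNA in the lower side was not tested.

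Between HFD_EXE and HFD_sed, 6657 genes were measured, of which 414 (6.22%) were at least 2-fold higher and 341 (5.12%) at least 2-fold lower in HFD_EXE, with a median log2 ratio of -0.01. In the remaining cells the split was 84 of 5317 genes (1.58%) higher and 587 (11.0%) lower. Over all cells 7 of 10 plasmacytoid markers and all 10 endothelial markers were at least 2-fold higher in HFD_EXE, where Siglech cells made up 38.5% against 13.04% in HFD_sed. Immediate early, cell cycle and monocyte-type genes were lower in HFD_EXE, Fkbp5 and Klf9 were higher, and chemokines went both ways. Of 9 measured cell cycle genes 6 were at least 2-fold lower and none higher (-1.27), and 4 of 9 in the remaining cells (-0.90).

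Immediate early genes, which answer stress and other signals within minutes and also answer tissue dissociation, gave 8 of 15 at least 2-fold lower in HFD_EXE and none higher, with a median log2 ratio of -1.05. In the remaining cells it was 3 of 15 lower and none higher (-0.72). Nr4a1, an orphan nuclear receptor induced by activation, was at 128, 487 and 381 CPM in HFD_EXE, HFD_sed and S, a log2 ratio of -1.93 (-2.35 to -1.54) for HFD_EXE over HFD_sed. Its relative Nr4a2 was at 15.7, 121 and 97.6 CPM, a log2 ratio of -2.95 (-4.29 to -1.88). Fosb was at 262, 782 and 260 CPM, a log2 ratio of -1.58 (-1.87 to -1.30), and its partner Fos at 1381, 3235 and 2030 CPM, a log2 ratio of -1.23 (-1.35 to -1.11). Nr4a1 and Nr4a2 were low in HFD_EXE alone, while Fosb was high in HFD_sed alone. Atf3, a stress-induced repressor, was at 378, 1051 and 647 CPM, a log2 ratio of -1.47 (-1.71 to -1.24). In the remaining cells these log2 ratios were -1.63 for Nr4a1, -3.45 for Nr4a2, -1.35 for Fosb, -0.84 for Fos and -0.97 for Atf3. Over the whole libraries Fos was at 797, 1795 and 1005 CPM and Nr4a1 at 207, 376 and 151 CPM in HFD_EXE, HFD_sed and S, so HFD_EXE lay below HFD_sed in the whole libraries too.

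Fkbp5, a co-chaperone that dampens the glucocorticoid receptor and is induced by it, was at 248, 24.8 and 9.76 CPM in HFD_EXE, HFD_sed and S. Its log2 ratio was 3.32 (2.75 to 3.93) for HFD_EXE over HFD_sed and 2.99 (2.28 to 3.74) in the remaining cells, and 32 of 39 cells of HFD_EXE held it against 26 of 138 of HFD_sed. Klf9, a transcription factor also induced by glucocorticoids, was at 219, 26.3 and 19.5 CPM, a log2 ratio of 3.06 (2.49 to 3.66) that was 1.80 (0.95 to 2.62) in the remaining cells. Whole libraries moved the same way, with Fkbp5 at 167, 42.9 and 40.5 CPM and Klf9 at 682, 118 and 185 CPM, and the part of free RNA was not tested. Free RNA was estimated from the share of endothelial markers in all cells found by the rule over that in the whole library. The estimate was 19.6%, 8.13% and 12.4% in HFD_EXE, HFD_sed and S. It includes the 6, 3 and 2 cells with at least 30 endothelial UMIs, so it is not the free RNA of a typical cell. Of 6 measured clock and glucocorticoid genes 3 were at least 2-fold higher in HFD_EXE and none lower (median log2 ratio 1.01), and 2 of 6 in the remaining cells (0.08). Other targets of the same receptor were closer between HFD_EXE and HFD_sed or turned with the marked cells. Tsc22d3 (GILZ) was at 497, 420 and 224 CPM, a log2 ratio of 0.24 (0.01 to 0.47), and the clock gene Per1 at 91.7, 96.3 and 29.3 CPM, a log2 ratio of -0.07 (-0.61 to 0.45). Sgk1 was at 291, 115 and 65.1 CPM over all cells, a log2 ratio of 1.34 (0.99 to 1.68), but at 56.0, 97.5 and 58.4 CPM in the remaining cells.

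Few further genes were higher in HFD_EXE once marked cells were set aside. Mkrn1, a ubiquitin ligase, was at 358, 181 and 137 CPM in HFD_EXE, HFD_sed and S over all cells and at 487, 187 and 153 CPM in the remaining cells, a log2 ratio there of 1.38 (1.04 to 1.72) for HFD_EXE over HFD_sed. Ddit4, a stress-induced brake on mTOR, was at 293, 135 and 98.8 CPM in the remaining cells, a log2 ratio of 1.11 (0.68 to 1.54). The next 2 genes are given over all cells, since none of 10 measured chemokines was at least 2-fold higher in the remaining cells. Ccl17, a chemokine for Ccr4-bearing T cells, was at 58.2, 3.01 and 0 CPM, and 1 cell of HFD_EXE held 46% of its UMIs. Over all cells Ccl22 had a log2 ratio of 1.32 (0.84 to 1.78), but 1 cell held 79% of its UMIs in HFD_EXE. Without the highest cell of each library the ratio was -0.42. The higher Ccl22 level of HFD_EXE thus rests on that cell.

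Monocyte-type genes were lower in HFD_EXE, with 5 of 10 measured markers at least 2-fold lower and none higher (median log2 ratio -0.998), and 4 lower in the remaining cells (-0.60). Ccr2, the receptor that brings monocytes and some dendritic cell precursors out of bone marrow, was at 338, 868 and 634 CPM in HFD_EXE, HFD_sed and S, a log2 ratio of -1.36 (-1.62 to -1.11) for HFD_EXE over HFD_sed. Cx3cr1, the fractalkine receptor, was at 49.2, 190 and 114 CPM, a log2 ratio of -1.95 (-2.65 to -1.32). Fn1, fibronectin, was at 38.0, 188 and 101 CPM, a log2 ratio of -2.31 (-3.11 to -1.60). F13a1, a transglutaminase of monocytes, was at 13.4, 99.4 and 68.3 CPM, a log2 ratio of -2.89 (-4.36 to -1.73). In S the levels of Fn1 and F13a1 rest on 2 and 3 cells. Over whole libraries the monocyte markers summed to 0.0782%, 0.229% and 0.110% of UMIs in HFD_EXE, HFD_sed and S, and the part of free RNA or of admixed monocytes in these ratios was not tested.

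Inflammatory products did not move as a block. Of 12 measured chemokines 2 were at least 2-fold higher and 3 lower in HFD_EXE than in HFD_sed (median log2 ratio -0.58), against none higher and 5 of 10 lower in the remaining cells (-0.82). Ccl4, a CC chemokine that attracts leukocytes, was at 347, 918 and 403 CPM in HFD_EXE, HFD_sed and S, a log2 ratio of -1.40 (-1.66 to -1.16) for HFD_EXE over HFD_sed. Il1b, the precursor of interleukin 1 beta, was at 407, 850 and 579 CPM, a log2 ratio of -1.06 (-1.29 to -0.83). Nfkbie, an inhibitor of NF-kB that is itself an NF-kB target, was at 31.3, 102 and 87.8 CPM, a log2 ratio of -1.71 (-2.62 to -0.91). The inducible cytokines Il12b, Il6, Il23a and Il10 had 0 to 3 UMIs in every library, so nothing can be said of them. Ciita, the master regulator of MHC class II genes, was at 170, 367 and 338 CPM, a log2 ratio of -1.11 (-1.48 to -0.76) that was -0.77 (-1.20 to -0.36) in the remaining cells.

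HFD_EXE and S share with the comparisons above the libraries already described, so their values are set side by side only. Of 3947 measured genes 289 (7.32%) were at least 2-fold higher and 104 (2.63%) at least 2-fold lower in HFD_EXE than in S, with a median log2 ratio of 0.08. In the remaining cells it was 74 of 2109 genes (3.51%) and 105 (4.98%). Cxcl10 was at least 25.9-fold higher in HFD_EXE than in S against the floor, or 20.7-fold at the lower end of the interval, with 62% of its UMIs in 1 of the 7 cells that held it. Cd83 had a log2 ratio of 2.197 (1.31 to 3.21), and Marcksl1, an actin-binding protein, at 338, 212 and 81.3 CPM in HFD_EXE, HFD_sed and S, one of 2.05 (1.44 to 2.73). Both held in the remaining cells, at 2.21 for Cd83 and 1.94 for Marcksl1. Fkbp5 had a log2 ratio of 4.67 (3.09 to 6.97) from 3 UMIs in S. On the lower side Ier3 had a log2 ratio of -2.28 (-3.12 to -1.50) and Nr4a1 one of -1.58 (-2.06 to -1.11). Rgs2, a brake on G protein signals, was at 322, 574 and 930 CPM, a log2 ratio of -1.53 (-1.83 to -1.24), and Junb, a partner of Fos proteins, at 774, 1509 and 1594 CPM, a log2 ratio of -1.04 (-1.24 to -0.84).

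**Figure D3:**
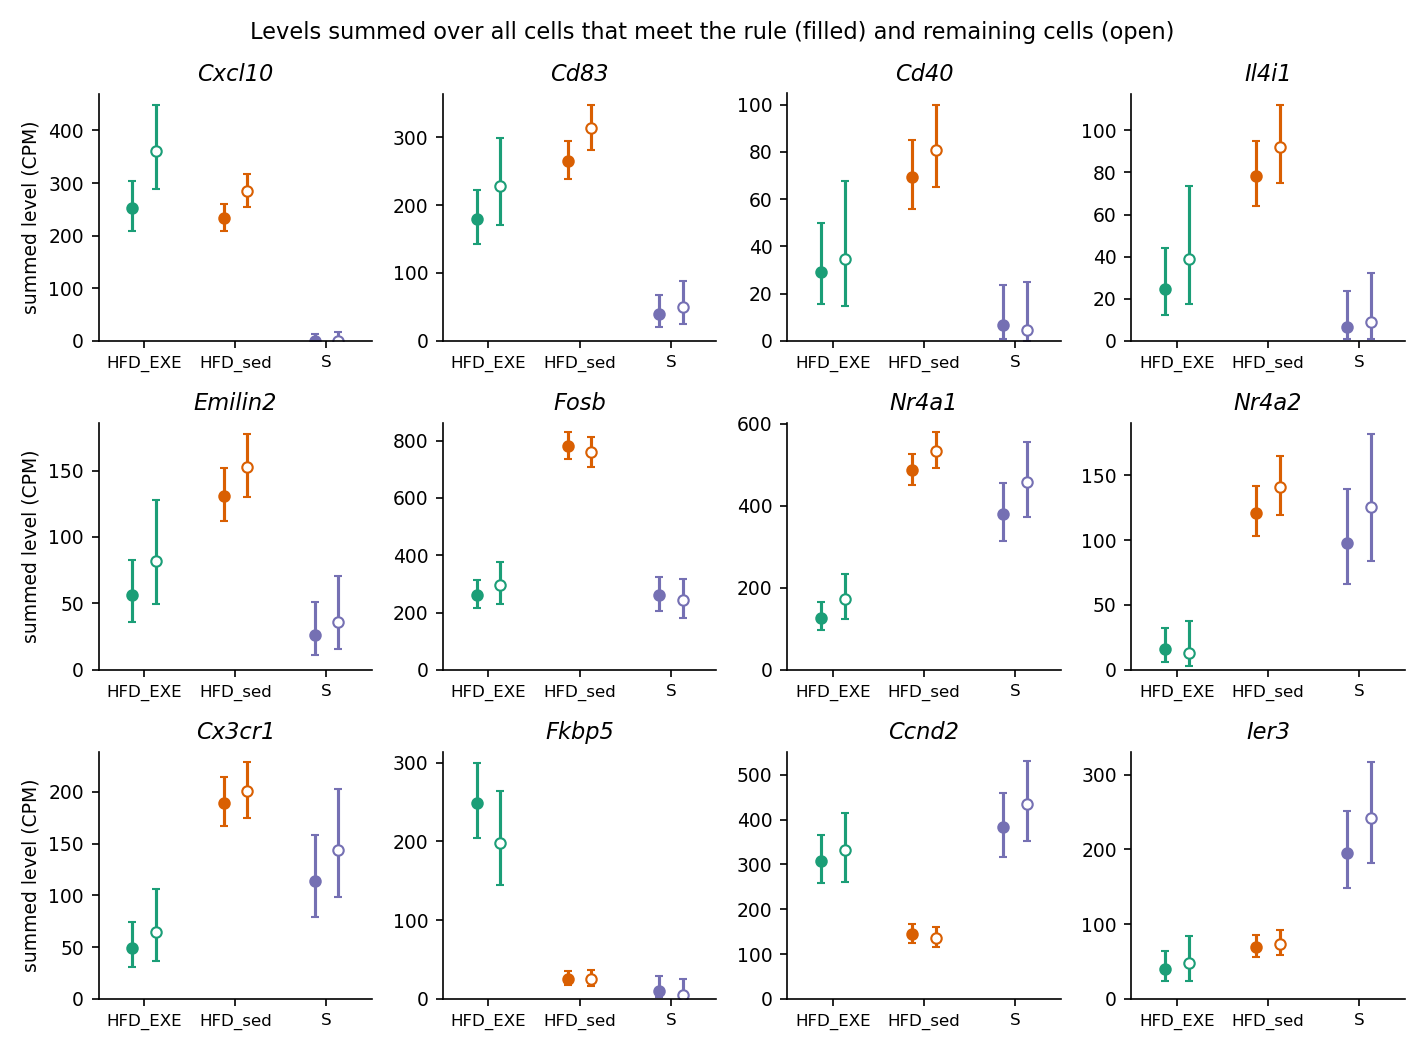
Levels (CPM, linear axes from 0) of 12 genes summed over all cells found by the rule (filled) and over the remaining cells (open) in HFD_EXE, HFD_sed and S, with exact 95% Poisson intervals. Cd83 and Cxcl10 are low in S alone, Fkbp5 is high in HFD_EXE alone at 248 CPM, Nr4a1 and Nr4a2 are low in HFD_EXE alone, and Ccnd2 is low in HFD_sed alone at 145 CPM.

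Most antigen presentation genes were close to even over the libraries, though Ciita was lower in HFD_EXE than in HFD_sed, as given above. Of 14 measured MHC class II genes 1 was at least 2-fold higher and none lower for HFD_sed over S (median log2 ratio -0.03). For HFD_EXE over HFD_sed 1 was lower and none higher (-0.17), and for HFD_EXE over S 2 were higher and none lower (-0.16). H2-Aa, the alpha chain of I-A, was at 7232, 7702 and 7895 CPM in HFD_EXE, HFD_sed and S, and Cd74, the invariant chain that escorts class II molecules, at 14713, 16038 and 16834 CPM. The ratios of H2-Aa and Cd74 between any pair of libraries were within 0.2 of 0 on the log2 scale over all cells. None of the 13 measured MHC class I genes reached 2-fold in either direction for HFD_sed over S (0.29) or HFD_EXE over HFD_sed (-0.07). B2m, the light chain of class I molecules, was at 2766, 2214 and 2378 CPM. Of 14 growth factor receptor genes 2 were higher and none lower for HFD_sed over S (0.15), and 1 lower and none higher for HFD_EXE over HFD_sed (-0.16). Csf2rb, the shared chain of the GM-CSF receptor, was at 177, 212 and 150 CPM.

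**Figure D4:**
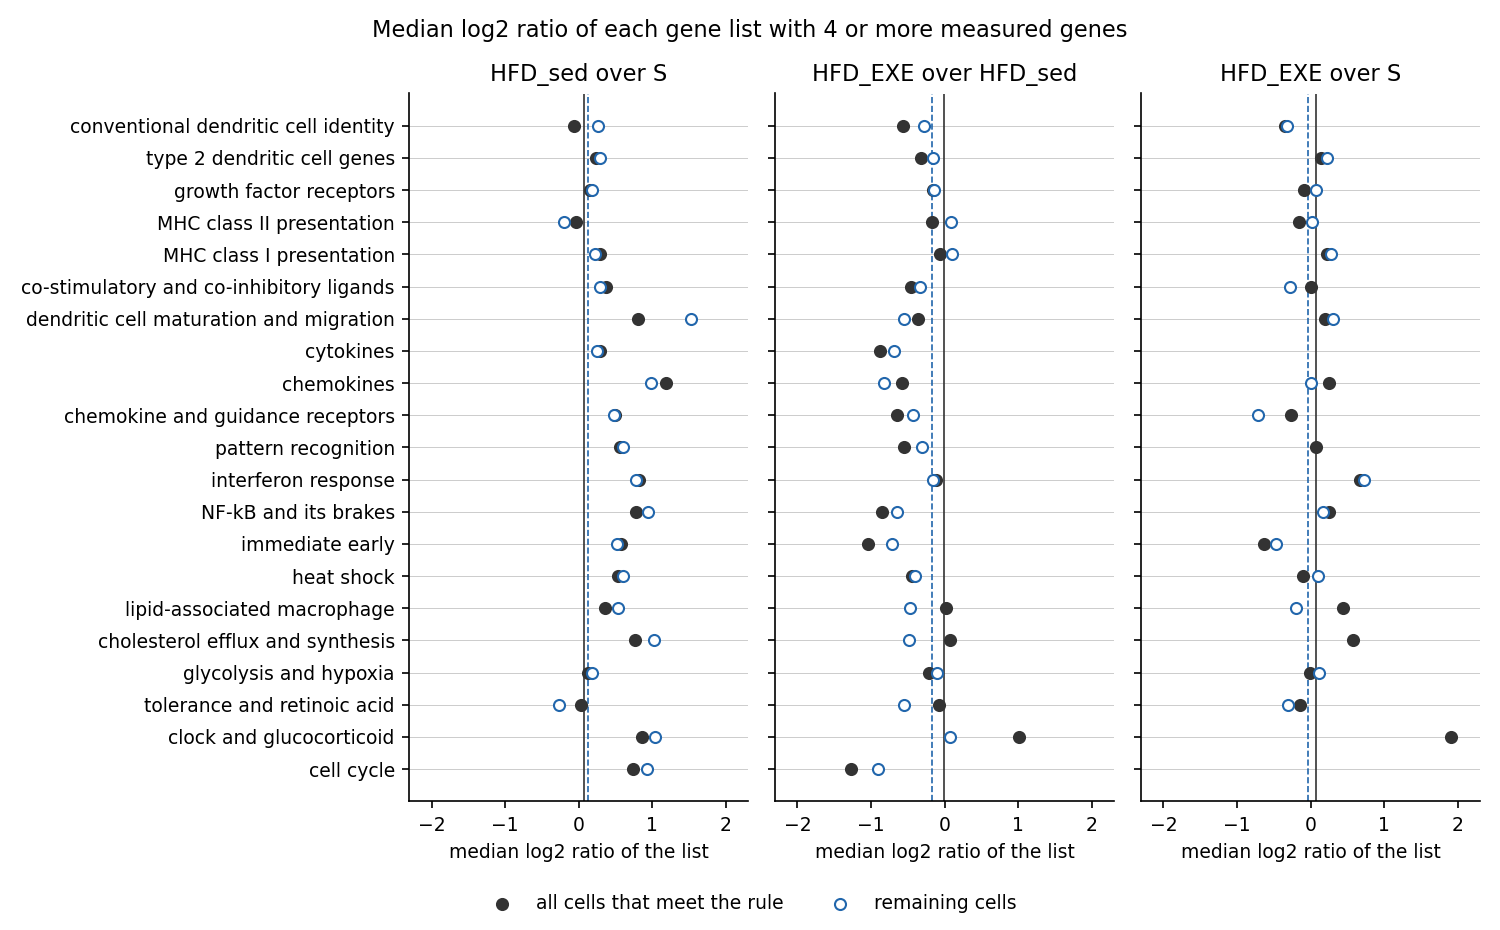
Median log2 ratio of each gene list with at least 4 measured genes, over all cells found by the rule (filled) and over the remaining cells (open), for HFD_sed over S, HFD_EXE over HFD_sed and HFD_EXE over S. The vertical lines are the medians over all measured genes (solid, all cells; dashed, remaining cells), and the chemokine (1.19) and interferon (0.81) lists lie right of the solid line for HFD_sed over S while the immediate early list (-1.05) lies left of it for HFD_EXE over HFD_sed.

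Differences between cell types were tested, since every library holds each type and the 3 libraries then serve as blocks. Type 1 dendritic cells were picked by at least 2 UMIs of Xcr1 and Clec9a together and at least 3 of H2-Ab1, with no Cd209a, Siglech, Cd3e or Cd79a and at most 1 Clec4f UMI, which gave 50, 127 and 33 cells in HFD_EXE, HFD_sed and S. Their median cell was deeper, at 16178, 14355 and 16322 UMIs. Counts were summed per library and type and compared with edgeR's quasi-likelihood test, with 5% as the limit for the Benjamini-Hochberg adjusted p over all 7298 genes tested. Genes used by the rules for any of the cell types were left out. In these comparisons type 2 cells stands for all 206 cells found by the rule, Siglech cells included. The labels do not say whether the libraries come from separate mice, so the p-values measure only the spread between these 3 libraries. In all, 424 genes (5.81%) were higher and 367 (5.03%) lower in type 2 than in type 1 cells. Of these, 350 and 334 kept their direction in every library when remaining cells alone were summed. For that check the endothelial and Kupffer limits were applied to type 1 cells too. They left 32, 95 and 27 type 1 cells in HFD_EXE, HFD_sed and S.

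Of 13 tested type 2 genes 8 were higher and 1 lower in type 2 cells, with a median log2 fold change of 1.08 against -0.01 for all genes. Among the 8, Clec4a2 lost its call without HFD_sed (adjusted p = 0.11) or without S (0.16), and Cfp without S (0.058). Itgam was at 134, 148 and 166 CPM in type 2 cells of HFD_EXE, HFD_sed and S, against 10.8, 18.3 and 3.77 CPM in type 1 cells, a log2 fold change of 3.50 ± 0.31 (SE, adjusted p = 0.00028). Irf4 was at 33.6, 53.4 and 71.6 CPM against 1.20, 3.65 and 13.2 CPM in type 1 cells, a log2 fold change of 3.40 ± 0.40 (adjusted p = 0.0011). Sirpa was at 233, 302 and 120 CPM against 69.5, 184 and 60.3 CPM, a log2 fold change of 1.08 ± 0.21 (adjusted p = 0.012). Cd24a, a sialoglycoprotein that marks the type 1 lineage, was the lower one, at 40.3, 41.4 and 6.51 CPM against 313, 312 and 434 CPM (-3.37 ± 0.35, adjusted p = 0.00052). All 9 tested type 1 markers were lower in type 2 cells, Tlr3, a sensor of double-stranded RNA, by 4.54 ± 0.24 and Itgae, the integrin CD103, by 5.75 ± 0.43 on the log2 scale. None of these markers was used by the rules. The rules did ask for Xcr1 and Clec9a in type 1 cells and bar them in type 2 cells. The choice of cells thus favours these directions, and its part was not tested.

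Further genes of the type 1 programme were low in type 2 cells. Cst3, cystatin C, averaged 3183 ± 356 CPM in type 2 cells and 13477 ± 988 CPM in type 1 cells (SD, n = 3 libraries each), a log2 fold change of -2.12 ± 0.08 (edgeR adjusted p = 3.5e-06). Ppt1, a lysosomal thioesterase, averaged 77.1 ± 14.9 CPM and 1040 ± 199 CPM (-3.77 ± 0.13). Batf3 averaged 49.96 ± 24.5 CPM and 194 ± 68.7 CPM (-1.84 ± 0.27), and Id2, a partner in type 1 commitment, 421 ± 101 CPM and 1264 ± 146 CPM (-1.66 ± 0.16). Irf8 averaged 938 ± 264 CPM and 1606 ± 312 CPM (-0.84 ± 0.20, edgeR adjusted p = 0.028). Among the cells found by the rule Irf8 was at 3280 CPM, 4221 CPM and 5383 CPM in Siglech cells of HFD_EXE, HFD_sed and S, against 194, 225 and 53.9 CPM in the remaining cells. Without HFD_sed its adjusted p was 0.20, and without S it was 0.14. Of 10 cell cycle genes 7 were lower and none higher in type 2 cells (median -1.35; 3 of 7 without HFD_sed), among them the proliferation marker Mki67 at 35.0 ± 12.1 CPM against 130 ± 65.7 CPM (-1.88 ± 0.28).

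The MHC class I calls were all on the lower side, and few MHC class II genes were called. Of 13 MHC class I genes 5 were lower and none higher in type 2 cells (median -0.19), among them Psmb9, a subunit of the immunoproteasome, at 184 ± 44.1 CPM against 536 ± 10.6 CPM (-1.56 ± 0.16, adjusted p = 0.0005), and the peptide transporter gene Tap1 (-0.87 ± 0.18, adjusted p = 0.015, and 0.074 without S). Of these 5 calls 4 were left without HFD_EXE, 2 without HFD_sed and 1, Psmb9, without S. Of 15 MHC class II genes 2 were higher and 1 lower (median -0.02). The 2 were the endosomal protease Ctss (0.85 ± 0.12) and the thiol reductase Ifi30 (0.99 ± 0.11), and the lower one was H2-Ob, a brake on peptide loading (-0.74 ± 0.15, adjusted p = 0.015, but 0.086 without HFD_sed and 0.064 without S). H2-Aa did not differ beyond its spread, at 7610 ± 341 CPM in type 2 and 7546 ± 240 CPM in type 1 cells (SD, n = 3 libraries, log2 fold change -0.02 ± 0.07, edgeR adjusted p = 0.90).

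Signalling genes were called more often on the higher side, but many of the calls rest on HFD_sed. Of 12 NF-kB genes 6 were higher and none lower (median 0.74), with Nfkb1 at 387 ± 70.1 CPM against 163 ± 35.7 CPM in type 1 cells (1.19 ± 0.17, adjusted p = 0.0028). Without HFD_sed only the calls for Nfkb1 and Tnip3 were left, 2 of the 6. Of 8 chemokine and guidance receptors 5 were higher and 2 lower, among the higher ones Cxcr4 (1.37 ± 0.16) and Cx3cr1 (0.95 ± 0.23). The 5 fell to 2 without HFD_sed and to 3 without S. The call for Cx3cr1 was lost without HFD_sed (adjusted p = 0.36) and without S (adjusted p = 0.13). Among chemokines 3 of 12 were higher and 2 lower (5 and 3 without HFD_EXE), with Ccl9, a myeloid chemokine of rodents, at 264 ± 65.2 CPM against 58.0 ± 35.0 CPM (2.17 ± 0.20). Il1b averaged 612 ± 223 CPM against 290 ± 150 CPM (1.07 ± 0.17, adjusted p = 0.0046). The co-stimulatory ligand Cd86 ran the other way at 55.3 ± 10.8 CPM against 133 ± 5.66 CPM (-1.25 ± 0.20). All 9 tested plasmacytoid markers were higher in type 2 cells, but the rule for type 1 cells barred Siglech, and 3 of the 9 were higher in every library once only remaining cells were counted. The genes with the largest folds on the higher side, Klk1, Cox6a2, Ly6d and Spib, were high in Siglech cells and low in the remaining cells, Ly6d at 0, 3.68 and 8.98 CPM and Spib at 12.9, 24.8 and 4.49 CPM in remaining cells of HFD_EXE, HFD_sed and S.

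Monocytes were picked by at least 1 UMI of Ly6c2 and of Ccr2 and at least 3 of Lyz2, with no Cd209a, Flt3, Xcr1, Clec9a, Siglech, Cd3e, Cd79a or Ncr1 and at most 1 Clec4f UMI. This gave 54, 506 and 22 cells in HFD_EXE, HFD_sed and S. Of 6090 genes tested in the same way 577 (9.47%) were higher and 578 (9.49%) lower in type 2 dendritic cells. Of these, 453 and 556 kept their direction in every library in the remaining cells. There the same limits left 47, 471 and 21 monocytes in HFD_EXE, HFD_sed and S. Genes of the Siglech cells led the higher side by fold. Of 9 tested plasmacytoid markers 8 were higher, and 2 of them in every library once only remaining cells were counted. Cox6a2, which had the largest fold among called genes of at least 50 CPM in the dendritic cells with 1 direction in every library, was at 1175, 1114 and 1058 CPM in Siglech cells of HFD_EXE, HFD_sed and S, against 0, 1.84 and 4.49 CPM in the remaining cells. MHC class II genes were higher as well, and monocyte, chemokine and pattern recognition genes were lower.

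Of 14 tested MHC class II genes 11 were higher and 2 lower in dendritic cells, with a median log2 fold change of 1.62 against 0.02 for all genes. The rule for dendritic cells asked for H2-Ab1 and the rule for monocytes did not, so the choice of cells favours this direction. The part of the rules in these folds was not tested. H2-Oa, a chain of the peptide-loading modulator DO, was at 159, 142 and 218 CPM in dendritic cells of HFD_EXE, HFD_sed and S, against 7.42, 3.27 and 0 CPM in monocytes, a log2 fold change of 5.36 ± 0.31 (SE, adjusted p = 2.3e-06). H2-Aa averaged 7610 ± 341 CPM against 1969 ± 479 CPM (SD, n = 3 libraries, 2.02 ± 0.13, edgeR adjusted p = 5.6e-06), and Ciita 292 ± 106 CPM against 80.2 ± 35.4 CPM (1.75 ± 0.26). The proteases Ctss and Lgmn were the 2 lower ones. None of the 13 tested MHC class I genes passed the limit (median 0.03).

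Of 17 tested identity genes 10 were higher and 2 lower in dendritic cells (median 1.02). Zbtb46 was at 31.3, 39.1 and 58.6 CPM in dendritic cells of HFD_EXE, HFD_sed and S, against 12.98, 4.36 and 0 CPM in monocytes (2.85 ± 0.47, adjusted p = 0.0016). Itgax averaged 198 ± 49.8 CPM against 52.9 ± 27.1 CPM (1.79 ± 0.28), and Cbfa2t3, a corepressor with a role in dendritic cell development, 371 ± 122 CPM against 126 ± 29.8 CPM (1.61 ± 0.17). The genes named for the type 2 lineage did not all favour the dendritic cells. Irf4, Cd7, Tnip3 and Cfp were higher, while Sirpa, Itgam, Clec4a2, Clec12a, Clec7a and S100a4 were higher in monocytes. The call for Tnip3 was lost without HFD_EXE (adjusted p = 0.12). Sirpa averaged 218 ± 91.6 CPM in dendritic cells against 475 ± 52.1 CPM in monocytes (-1.06 ± 0.19, adjusted p = 0.0026), and Itgam 149 ± 15.9 CPM against 299 ± 70.1 CPM (-0.92 ± 0.16). Both markers were thus higher in type 2 than in type 1 cells and lower than in monocytes.

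Monocyte genes were lower in dendritic cells than in monocytes, whose rule asked for Ly6c2, Ccr2 and Lyz2. The choice of cells thus favours this direction, and its part was not tested. Monocyte-type genes were not absent from the dendritic cells, as the levels of Lyz2, Ccr2 and Fn1 given above show. Of 10 tested monocyte markers 9 were lower in dendritic cells (median -2.93). Chil3, a chitinase-like protein of classical monocytes, was at 4.48, 24.1 and 0 CPM in dendritic cells of HFD_EXE, HFD_sed and S, against 1187, 1205 and 2641 CPM in monocytes (-6.54 ± 0.41, adjusted p = 3.5e-06). Vcan, a matrix proteoglycan, was at 0, 8.28 and 0 CPM against 135, 222 and 202 CPM (-5.24 ± 0.39). Fn1 averaged 109 ± 75.4 CPM against 1429 ± 826 CPM (-3.52 ± 0.29), so its level in the dendritic cells of HFD_sed, 188 CPM, was well under that in monocytes of the same library, 1254 CPM. Of 14 pattern recognition genes 9 were lower and none higher (median -1.38), with the lipoprotein sensor Tlr2 at 33.9 ± 12.99 CPM against 173 ± 62.8 CPM (-2.28 ± 0.20). Of 11 chemokines 9 were lower and none higher (-1.11), Cxcl2, a neutrophil chemokine, averaging 32.3 ± 39.8 CPM against 701 ± 430 CPM (-4.34 ± 0.32).

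Lipid-associated macrophage and glycolysis genes were also lower, while sterol genes were mostly higher. Of 12 genes of lipid-associated macrophages 9 were lower and 1 higher (median -1.14), with Apoe, apolipoprotein E, at 903 ± 243 CPM against 3475 ± 825 CPM (-1.87 ± 0.19), and Trem2, a lipid-sensing receptor, at 7.24 ± 6.28 CPM against 67.5 ± 19.5 CPM (-2.89 ± 0.36). Of 13 genes of cholesterol efflux and synthesis 6 were higher and 2 lower (0.89), but 1 of the 6 was higher in every library in the remaining cells, and without HFD_sed 2 were higher and none lower. Of 14 glycolysis and hypoxia genes 7 were lower and none higher (-0.68), which became 4 without HFD_sed and 11 without S, Pgk1, a glycolytic kinase, averaging 91.6 ± 41.7 CPM against 285 ± 142 CPM (-1.60 ± 0.17). On the other side 4 of 6 cell cycle genes were higher in dendritic cells (1 of 4 without HFD_sed), Top2a, a topoisomerase of dividing cells, at 26.9, 64.7 and 22.8 CPM against 0, 2.40 and 4.81 CPM in monocytes of HFD_EXE, HFD_sed and S (4.68 ± 0.46). The inhibitory receptor Btla was higher too, at 65.4 ± 27.7 CPM against 10.9 ± 7.32 CPM (2.56 ± 0.32, adjusted p = 0.00027), and so was Icosl, the ligand of the T cell receptor ICOS (1.52 ± 0.26).

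**Figure D5:**
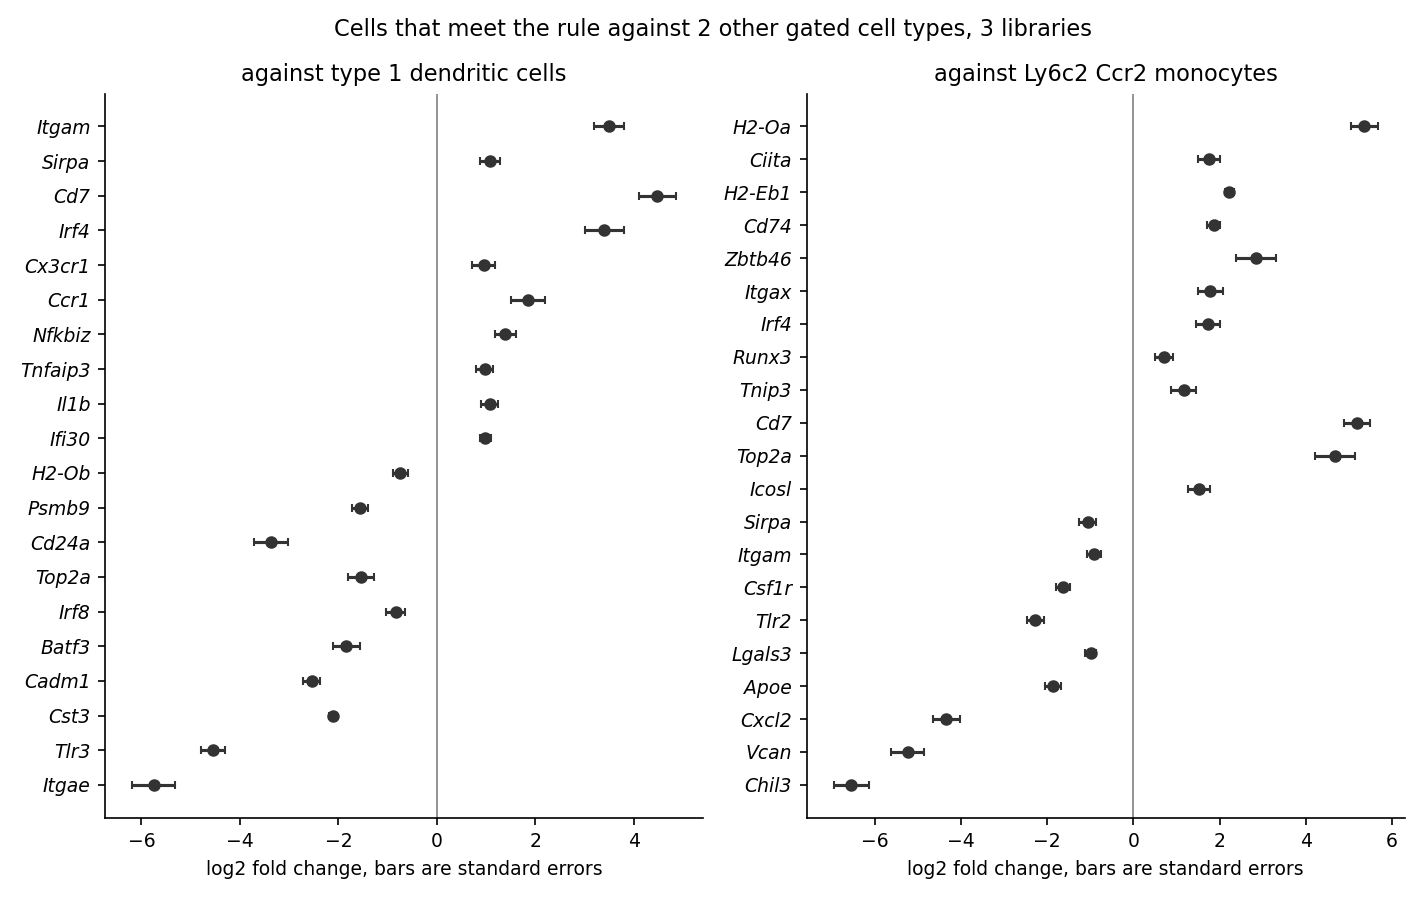
Log2 fold changes (points) with standard errors (bars) for cells found by the rule against type 1 dendritic cells (left, 20 genes) and against monocytes (right, 21 genes), from edgeR's quasi-likelihood fit over 3 libraries. Values right of 0 are higher in the type 2 cells, and Itgam and Sirpa lie right of 0 against type 1 cells (3.50 and 1.08) and left of 0 against monocytes (-0.92 and -1.06).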

How the data were processed

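Cells from mouse liver without hepatocytes were measured by 10x Genomics single-cell RNA-seq, and the authors deposited 1 matrix of UMI counts per library, made with Cell Ranger 6.1.2 against build GRCm39, per the submitters' processing notes and the file headers. No source used here states the counting options. The matrices list barcodes with at least 500 UMIs. Group E was not analysed here. A barcode was kept as a cell from 500 UMIs and 300 genes upward if mitochondrial transcripts made up less than 15%, which left 10467 in HFD_EXE, 11068 in HFD_sed and 10615 in S. Scrublet, run through scanpy, served only as an alternative (score over 0.2). The cells, the 35 gene lists (21 programmes and 14 other cell types, 425 genes) and the comparisons were chosen with earlier results of these data known, so none is independent support. The limits that set aside Siglech, endothelial and Kupffer-marked cells were chosen after the values were seen.

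Counts were summed over cells by library, and genes with at least 30 UMIs in both libraries together were measured. Levels have exact Poisson intervals, shares Clopper-Pearson intervals and ratios exact conditional binomial intervals, all at 95% and for counting error only. A count of 0 takes a floor of 3 UMIs over the library. Thinning used seed 20. Cell types were compared with edgeR's quasi-likelihood test (TMM, library as block, which pairs the sums of 1 library). Genes used by the rules for any of the cell types were left out, and adjusted p-values are Benjamini-Hochberg over all genes tested. On simulated counts this recovered 25% of 2-fold and 99% of 4-fold changes against type 1 cells (100 each, 7363 genes, 1 false call), and 39% and 100% against monocytes (6154 genes, 3 false calls). Those counts came from 1 mean profile with a fixed dispersion and no library effect, so recovery in the real libraries may differ. The rule for named genes took the 10 genes with the interval bound farthest from no change (between libraries) or the largest log2 fold (between types) among genes with at least 50 CPM, up to 4 members per list, and markers of the label. Not every gene it took is named. Genes of near-identical families may share reads. Versions were Python 3.11.15, numpy 2.4.6, scipy 1.17.1, scanpy 1.11.5, R 4.3.3, edgeR 4.0.16 and DESeq2 1.42.0.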

Additional observations from a re-analysis of the deposited data

How the results depend on the processing

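Shares kept their direction under every alternative that was run (other gates, leukocytes only, thinning, doublet scores, marked cells set aside). For HFD_EXE over S the interval spans no difference in the main view and in every alternative but 1. The exception is the share of all cells found by the rule among leukocytes (1.20 to 3.35). The ratio of HFD_sed over S was 3.02 after thinning, and that of HFD_EXE over HFD_sed was 0.575 among leukocytes, 0.432 after thinning and 0.187 in the remaining cells. Setting marked cells aside was added after seeing the data. Counts of genes past the fold depend on the minimum count and the fold. With at least 100 UMIs, 122 genes were higher and 25 lower for HFD_sed over S, 95 and 92 for HFD_EXE over HFD_sed, and 47 and 8 for HFD_EXE over S. With only 1 UMI asked of each library the counts were 974 and 2010, 2046 and 942, and 1551 and 1200 in the same order. For HFD_sed over S more genes were then lower than higher, the reverse of the main setting. At 1.5-fold they were 1165 and 710, 941 and 957, and 748 and 408. With free RNA subtracted, by an estimate that also holds the endothelial-marked cells, 616 genes were lower for HFD_EXE over HFD_sed and 202 for HFD_EXE over S. In the remaining cells 128 genes were lower for HFD_sed over S, 84 higher and 587 lower for HFD_EXE over HFD_sed, and 74 higher for HFD_EXE over S. Under median-ratio size factors the counts were 625 and 180, 352 and 424, and 279 and 125, and the all-gene medians 0.18, -0.10 and 0.03. Without each gene's highest cell, 4 ratios changed sign: Ccl22 for HFD_EXE over HFD_sed at -0.42, and the platelet genes Nrgn, Pf4 and Ppbp for HFD_EXE over S at -0.55 each. For the platelet genes both libraries were then at the floor of 3 UMIs. Their shared value only reflects the summed UMIs of the 2 libraries, and no ratio could be measured. In the remaining cells Sgk1 turned round as well, to -0.80 for HFD_EXE over HFD_sed. Of 1131 values of named genes under these alternatives 1070 stayed within their interval, 56 moved out of it and these 5 changed sign, the platelet genes among them at the floor. The cause of these changes was not tested.

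No paired analysis was possible between libraries because each group is 1 library. Between cell types the library block pairs the sums of each library. With no replicate block, 284 genes were higher and 242 lower against type 1 cells, and 320 higher and 327 lower against monocytes. DESeq2 gave 249 and 187 against type 1 cells and 299 and 352 against monocytes. With no low-count filter there were 657 and 689 against type 1 cells and 726 and 915 against monocytes. Leaving out 1 library gave 191 to 549 higher and 145 to 559 lower against type 1 cells, lowest without HFD_sed and highest without HFD_EXE, and 401 to 616 higher and 404 to 715 lower against monocytes, highest without S. With marked cells set aside in both types of each comparison it was 536 and 442 against type 1 cells and 480 and 524 against monocytes. Of 1369 values of named genes 88 lost their call, 29 of them with no replicate block and 25 without HFD_sed. Among those with no replicate block were Sirpa (adjusted p = 0.23), Il1b (0.13), Cxcr4 (0.10) and Ifi30 (0.058) against type 1 cells. The 2 that turned round were of H2-Aa against type 1 cells, which passed the limit in no fit: its log2 fold change ran between -0.077 and 0.016 with 1 library left out and was 0.20 with marked cells set aside. Depth limits the comparisons most in S and HFD_EXE, where 20 remaining cells each carry the levels.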
